A study of Rattus norvegicus with 9 samples.

Results

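Cell cycle and DNA replication genes were followed in the livers of 9 Goto-Kakizaki (GK) rats. The 50 listed genes fell into 20 for DNA replication and the entry into S phase and 30 for mitosis. For each gene, the probe set with the highest mean log2 signal over the 9 arrays was used among those annotated with that gene symbol alone. In this way 46 of the 50 genes were measured, 18 for replication and 28 for mitosis, out of 14217 genes that had a probe set of their own. Cdc6, Rrm2, Tpx2 and Hmgb2 had no such probe set and were left out. A filter on low signals, described beside the tests, kept 33 of the 46 genes, 14 for replication and 19 for mitosis. The other 13 were measured but not tested.

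The study asked how depression-like behavior after chronic unpredictable mild stress (CUMS) altered the liver of diabetic rats, and Affymetrix arrays were run on 1 liver per rat. GK rats are a non-obese strain that develops diabetes spontaneously, and all animals were male and diabetic, in the CUMS groups and in the control group alike. CUMS 1-3 (3 rats, labelled as major depression) and CUMS 4-6 (3 rats, labelled as mild depression) were stressed daily for 8 weeks and housed singly, and control 1-3 (3 rats) were fed over the same time without stress. All rats were used in a pharmacokinetic test of oral repaglinide, an insulin secretagogue, before the livers were taken, per the methods. The labels give no age, and the rats were bought young and kept until diabetes appeared. Neither the way in which stressed rats were sorted into the major and mild labels nor the choice of the 9 rats for the arrays is stated in the sources used here. Single housing came with the stress, so its effect cannot be told apart from that of the stress. The rats are separate animals, and p-values measure the spread between these animals.

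A cell that leaves rest passes the G1/S gate when cyclin D and cyclin E kinases release the E2F factors, which switch on the genes that copy DNA. The MCM helicase, loaded at origins by Cdc6 and Cdt1, opens the double helix, PCNA clamps the polymerases to the template, and ribonucleotide reductase, thymidylate synthase and thymidine kinase supply nucleotides. Later, FOXM1 and the B-MYB complex switch on the mitotic genes through the CHR promoter element, Cdk1 with its cyclins drives entry into mitosis, the spindle checkpoint holds chromosomes until all are attached, and the contractile ring parts the daughter cells. Adult rat hepatocytes are mostly at rest, and the liver is known for the way in which they re-enter the cycle after loss of tissue. In whole liver, fewer dividing cells and less RNA per dividing cell cannot be told apart.

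The arrays were those of liver, as all 11 measured hepatocyte markers of 12 listed passed the signal filter, with summed signals of 231423 to 271954 in CUMS 1-3, 266672 to 299244 in CUMS 4-6 and 228126 to 277498 in control 1-3. Control 3 stood apart from the others. Its median correlation with the other arrays was 0.951, against 0.965 to 0.972 for the other 8, and its actin 3′/5′ ratio, a measure of RNA integrity that rises with degradation, was the lowest at 2.51, with 5.23 in CUMS 2 and 4.96 in CUMS 4 at the other end. The GAPDH 3′/5′ ratio did not set control 3 apart, at 1.34 against 1.32 in CUMS 6 to 1.75 in CUMS 2. Control 3 was the highest of the 9 rats in 3128 of all 14217 genes, or 22%. Log2 fold changes against control are therefore also given without control 3.

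Most replication and mitosis genes had lower mean signals in both CUMS groups than in control, and none passed the test, beside 0% of all probe sets tested. In CUMS 1-3 against control, 42 of 46 genes were lower in the mean, and in CUMS 4-6 against control 44 of 46. The 2 comparisons share the control rats. The size of the difference and the rats that carried it were unlike in the 2 kinds of genes. For mitosis genes most of it was gone when control 3, the highest of the 9 rats in 28 of 28 genes, was left out. For replication genes it was smaller. In Mcm3, Mcm6, Pcna and Rrm1 of the replication genes and in Ccna2 and Aurkb of the mitosis genes every CUMS rat lay below every control rat, which makes 6 of 46 members beside 2.46% of all genes. The same 6 members had every CUMS rat below both control 1 and control 2, beside 4.75% of all genes, and no member had every CUMS rat above both.

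**Figure D1:**
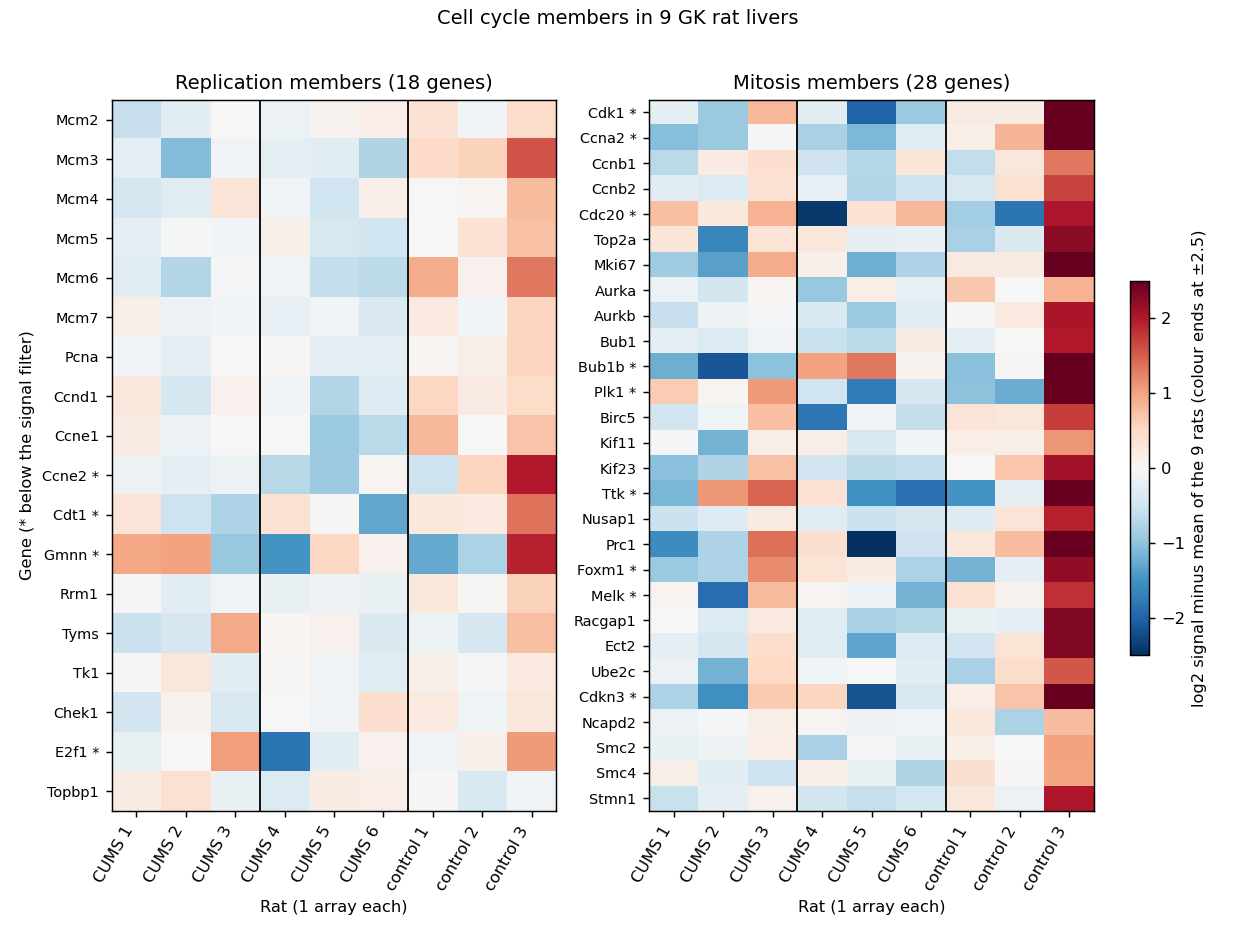
Log2 signal of the 18 replication genes (left) and 28 mitosis genes (right) in each rat, minus the mean of the 9 rats, with CUMS 1-3, CUMS 4-6 and control 1-3 set apart by vertical lines. Red is above and blue below the mean of the gene, and a star marks the 13 genes under the signal filter. The column of control 3 is the highest in all 28 mitosis genes and in 12 of the 18 replication genes.

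Mcm3 and Mcm6 had the lowest log2 fold changes of the 18 replication genes in both CUMS groups. Mcm3 (probe set 1372406_at), a subunit of the ring-shaped MCM2-7 helicase, had signals of 99.5, 55.2 and 111 in CUMS 1-3, 101, 97.2 and 69.2 in CUMS 4-6 and 163, 174 and 349.7 in control 1-3. All 6 CUMS rats were below all 3 controls. On the log2 scale the fold change was -1.35 ± 0.37 (SE, n = 3 against 3, limma adjusted p = 0.606) in CUMS 1-3 against control and -1.29 ± 0.37 (SE, n = 3 against 3, limma adjusted p = 0.744) in CUMS 4-6 against control. Mcm6 (1371074_a_at), another subunit of the ring, had signals of 124, 89.5 and 146 in CUMS 1-3, 140.2, 97.8 and 93.9 in CUMS 4-6 and 284, 160.4 and 372 in control 1-3. Again no CUMS rat reached a control rat, although CUMS 3 and CUMS 4 came close to control 2. For Mcm6 the log2 fold change was -1.13 ± 0.33 (SE, n = 3 against 3, limma adjusted p = 0.651) in CUMS 1-3 and -1.24 ± 0.33 (SE, n = 3 against 3, limma adjusted p = 0.744) in CUMS 4-6. Without control 3, the log2 fold changes of Mcm3 were -0.99 and -0.94 in CUMS 1-3 and CUMS 4-6, with limma adjusted p = 0.832 and 0.943. Those of Mcm6 were -0.86 and -0.97, with limma adjusted p = 0.887 and 0.93. The sign of both genes thus did not hang on control 3.

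The promoters of Mcm3 and Mcm6 are shown because all CUMS rats lay below all controls in these genes, and because both hold the E2F motif of S phase genes. They are RefSeq sequences of build GRCr8 that run from 250 bases before to 50 after the gene start (chr9:30733697-30733996, minus strand, for Mcm3, and chr13:42404303-42404602, minus strand, for Mcm6), 5′ to 3′ on the strand of the gene. Capitals mark the E2F motif, searched on both strands as TTTGGCGC, TTTCCCGC, TTTGCCGC or TTTCGCGC. Each promoter holds 2 matches, and those of Mcm6 overlap. Pcna and Rrm1, in which all CUMS rats also lay below all controls, have promoters without this motif.
Mcm3: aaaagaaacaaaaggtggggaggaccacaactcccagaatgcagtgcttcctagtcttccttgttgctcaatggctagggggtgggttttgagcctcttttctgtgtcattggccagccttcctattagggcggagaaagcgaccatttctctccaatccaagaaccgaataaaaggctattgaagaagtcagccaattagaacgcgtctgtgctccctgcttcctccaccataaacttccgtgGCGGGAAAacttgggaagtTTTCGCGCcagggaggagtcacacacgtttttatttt
Mcm6: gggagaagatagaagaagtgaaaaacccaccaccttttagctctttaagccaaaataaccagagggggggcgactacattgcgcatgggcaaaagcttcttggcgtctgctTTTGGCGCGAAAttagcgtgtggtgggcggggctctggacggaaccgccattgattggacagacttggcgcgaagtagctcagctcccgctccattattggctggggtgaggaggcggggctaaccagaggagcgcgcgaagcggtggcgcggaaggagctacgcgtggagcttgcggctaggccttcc

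The other MCM genes had smaller differences. Mcm2 (1374036_at), also of the helicase ring, had signals of 134, 166 and 198 in CUMS 1-3, 179, 211 and 224 in CUMS 4-6 and 255, 190.3 and 274 in control 1-3, and its log2 fold change was -0.53 ± 0.22 (SE, n = 3 against 3, limma adjusted p = 0.733) in CUMS 1-3. CUMS 1, CUMS 2 and CUMS 4 were below all controls, while CUMS 3, CUMS 5 and CUMS 6 lay between control 2 and control 1, with a log2 fold change of -0.22 in CUMS 4-6. Without control 3 the log2 fold changes of Mcm2 were -0.43 in CUMS 1-3 and -0.11 in CUMS 4-6. Mcm4, Mcm5 and Mcm7, the remaining measured subunits, had log2 fold changes of -0.43, -0.47 and -0.26 in CUMS 1-3 and of -0.44, -0.62 and -0.44 in CUMS 4-6. These were -0.18, -0.29 and -0.11 in CUMS 1-3 and -0.19, -0.43 and -0.29 in CUMS 4-6 without control 3. The 6 subunits were all lower in the mean in both CUMS groups, with control 3 and without it. Control 3 had the highest Mcm signal of the 9 rats for each of them.

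Pcna (1367671_at), the sliding clamp of the replication fork, had a small difference without overlap between the rats. Its signals were 1604, 1416 and 1684 in CUMS 1-3, 1715, 1429.5 and 1439 in CUMS 4-6 and 1727, 1863 and 2446 in control 1-3, and the highest CUMS rat, CUMS 4, lay just below the lowest control. Its log2 fold change was -0.35 ± 0.15 (SE, n = 3 against 3, limma adjusted p = 0.733) in CUMS 1-3, and -0.39 in CUMS 4-6. Rrm1 (1371862_at), the large subunit of ribonucleotide reductase, had signals of 334, 282 and 314 in CUMS 1-3, 299, 309 and 297 in CUMS 4-6 and 411, 347 and 502 in control 1-3. All CUMS rats were again below all controls, with a log2 fold change of -0.43 ± 0.17 (SE, n = 3 against 3, limma adjusted p = 0.733) in CUMS 1-3 and of -0.46 in CUMS 4-6. Without control 3, the log2 fold changes were -0.20 and -0.24 for Pcna and -0.29 and -0.32 for Rrm1 in CUMS 1-3 and CUMS 4-6.

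The other nucleotide supply genes did not share this pattern. Tyms, which makes thymidylate, had signals of 72.4, 78.9 and 204 in CUMS 1-3, 109, 113 and 81.4 in CUMS 4-6 and 95.8, 78.9 and 178 in control 1-3. Its highest value was in CUMS 3, above control 3, and the log2 fold changes were -0.07 in CUMS 1-3 and -0.14 in CUMS 4-6. Without control 3 both had the other sign, at 0.27 in CUMS 1-3 and 0.20 in CUMS 4-6. Tk1, thymidine kinase of the salvage route, had signals between 288 and 421 in the CUMS rats, which spanned its control range of 341 to 409, and its log2 fold changes were -0.12 in CUMS 1-3 and -0.22 in CUMS 4-6, and -0.06 and -0.16 without control 3.

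Among the G1/S regulators, the D and E cyclins had the larger negative values in CUMS 4-6, and the test between the 2 CUMS groups called neither. Ccnd1 (1371643_at), cyclin D1, the sensor of growth signals, had signals of 530.1, 326 and 472 in CUMS 1-3, 422, 264 and 355 in CUMS 4-6 and 629, 511 and 605 in control 1-3. CUMS 4-6 lay below all controls and CUMS 1 lay within their range, and control 3 was not the highest rat, which was control 1. In CUMS 4-6 the log2 fold change was -0.77 ± 0.22 (SE, n = 3 against 3, limma adjusted p = 0.744), and -0.74 without control 3 (limma adjusted p = 0.934). In CUMS 1-3 it was -0.42 ± 0.22 (SE, n = 3 against 3, limma adjusted p = 0.766), and -0.39 without control 3. Ccne1, cyclin E1, had signals of 79.1, 62.1 and 68.6 in CUMS 1-3, 69.4, 36.2 and 42.97 in CUMS 4-6 and 122, 68.2 and 113 in control 1-3. The log2 fold change of Ccne1 was -0.49 in CUMS 1-3 and -1.04 in CUMS 4-6, and -0.39 and -0.94 without control 3. CUMS 4 alone of the mild-label rats was above a control rat. The 2 other probe sets of Ccnd1 had log2 fold changes of -0.48 and -0.38 in CUMS 1-3 and of -0.51 and -0.30 in CUMS 4-6. Without control 3 these were -0.27 and -0.37 in CUMS 1-3 and -0.30 and -0.28 in CUMS 4-6, all of them still negative.

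Ccne2, Cdt1, Gmnn and E2f1, which are cyclin E2, the origin licensing factor, its inhibitor geminin and an activating E2F factor, were under the signal filter and were not tested. Their signals were scattered. Gmnn had 95.2, 98.5 and 25.3 in CUMS 1-3, 17.3, 69.5 and 52.5 in CUMS 4-6 and 20.1, 28.1 and 184 in control 1-3, so that its log2 fold change was 0.40 in CUMS 1-3 with control 3 and 1.38 without it. In CUMS 4-6 it was -0.24 with control 3 and 0.74 without it. A further Gmnn probe set, under the filter (1392700_at), had -0.80 in CUMS 1-3 and 0.39 in CUMS 4-6, each of the other sign. Without control 3 it had -0.07 and 1.12. For Ccne2, control 3 was above the other 8 rats, which had signals between 33.4 and 90.5. Its log2 fold changes were -0.84 in CUMS 1-3 and -1.18 in CUMS 4-6, and -0.18 and -0.52 without control 3. A further Ccne2 probe set, under the filter (1391681_at), had 0.42 and -0.60, and 0.52 and -0.50 without control 3. There control 3, at 57.65, was below CUMS 3, at 88.98.

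Of the S phase checkpoint genes, Chek1 (1387062_a_at), the kinase that slows the cycle when forks stall, had signals of 152, 226 and 161 in CUMS 1-3, 214, 202 and 286 in CUMS 4-6 and 252, 198 and 258 in control 1-3. CUMS 1 and CUMS 3 were below all other rats, and the log2 fold change was -0.41 in CUMS 1-3 and -0.02 in CUMS 4-6, and -0.34 and 0.05 without control 3. Topbp1, which helps to start forks and to activate the ATR kinase, was one of the few members with a higher mean in the CUMS groups, with log2 fold changes of 0.28 in CUMS 1-3 and 0.15 in CUMS 4-6, and 0.31 and 0.18 without control 3. A further Topbp1 probe set is among those the study listed on these same samples, so it is no independent evidence of a direction. This probe set (1381958_at) had signals of 179.98, 188 and 199.9 in CUMS 1-3, 64.1, 167 and 178 in CUMS 4-6 and 130.4, 107 and 113 in control 1-3. All rats of CUMS 1-3, and CUMS 5 and CUMS 6, lay above all controls there, and CUMS 4 lay below them, with log2 fold changes of 0.70 in CUMS 1-3 (limma adjusted p = 0.75) and 0.09 in CUMS 4-6, and 0.68 and 0.07 without control 3.

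Counted over all 18 replication genes, 16 were lower in CUMS 1-3 and 17 in CUMS 4-6. The exceptions were Gmnn and Topbp1 in CUMS 1-3 and Topbp1 in CUMS 4-6. The median log2 fold change was -0.42 in CUMS 1-3 (0.746 of control) and -0.45 in CUMS 4-6 (0.731 of control), beside -0.02 in both over all 14217 genes. Without control 3, 14 of 18 were lower in each CUMS group, with medians of -0.24 in CUMS 1-3 and -0.31 in CUMS 4-6, beside -0.01 over all genes. The mean log2 signal of the 18 genes, set against the mean of control 1 and control 2, was -0.14, -0.25 and -0.11 in CUMS 1-3, -0.34, -0.32 and -0.33 in CUMS 4-6, and 0.05, -0.05 and 0.77 in control 1-3. All 6 CUMS rats were below control 1 and control 2 in this mean, also after quantile normalization, centring on the median, addition of 50 to the signal or a floor of 16.

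**Figure D2:**
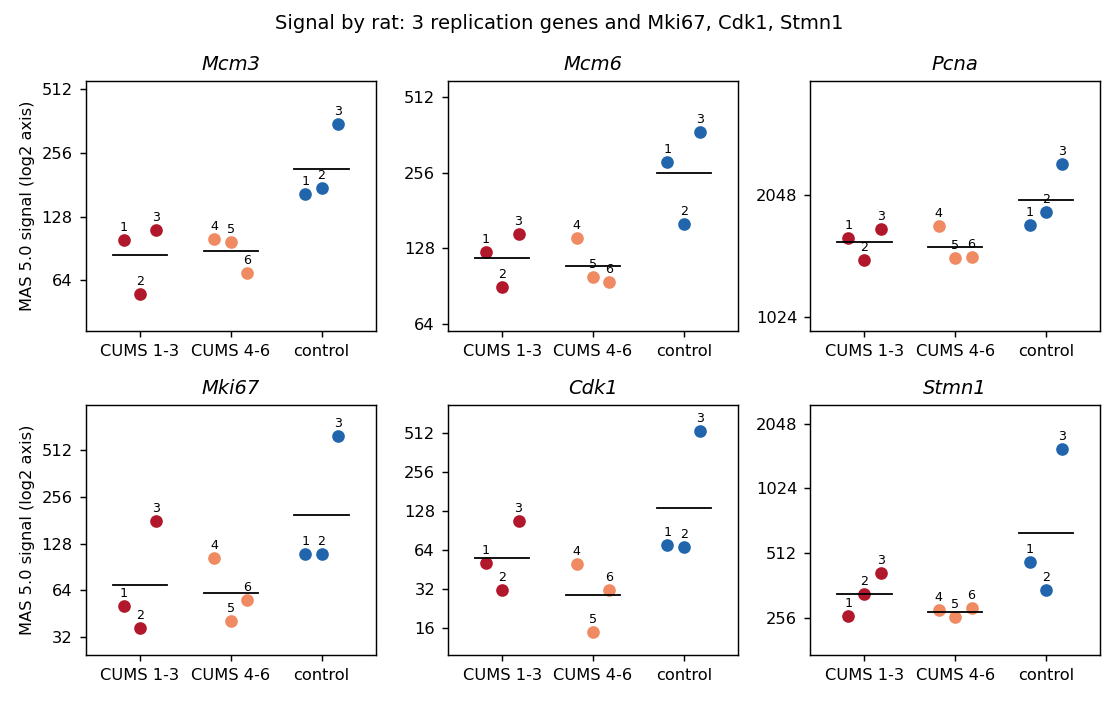
MAS 5.0 signal on a log2 axis in each rat (points, numbered by rat) for Mcm3, Mcm6, Pcna, Mki67, Cdk1 and Stmn1, in CUMS 1-3, CUMS 4-6 and control, with the geometric mean of each group as a line. For the 3 replication genes in the upper row all CUMS rats are below all controls, and for the 3 genes in the lower row CUMS 3 is near or above control 1 and control 2 while control 3 is far above every rat.

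The mitosis genes had larger mean differences, and most of them were much smaller without control 3. Mki67 (1374775_at), which codes for the Ki-67 proliferation marker, had signals of 50.7, 36.7 and 179 in CUMS 1-3, 103, 40.7 and 55.5 in CUMS 4-6 and 110.3, 110.01 and 631 in control 1-3. Control 3 was at 5.73 times the mean of control 1 and control 2, and CUMS 3 was above both of these. The log2 fold change was -1.51 ± 0.74 (SE, n = 3 against 3, limma adjusted p = 0.749) in CUMS 1-3, and -0.67 without control 3. Cdk1, the kinase that drives entry into mitosis, had signals of 50.8, 31.4 and 107 in CUMS 1-3, 50.2, 14.9 and 31.3 in CUMS 4-6 and 69.4, 67.7 and 528 in control 1-3. Its log2 fold change, in a gene under the signal filter, was -1.29 in CUMS 1-3 and -2.24 in CUMS 4-6, and without control 3 these were -0.30 and -1.26. Stmn1 (1386857_at), stathmin, which takes microtubules apart before the spindle forms, had signals of 259.8, 329 and 414 in CUMS 1-3, 279, 258 and 283 in CUMS 4-6 and 465, 346 and 1568 in control 1-3. CUMS 3 lay between control 2 and control 1, and the other CUMS rats were below both. Stmn1 had a log2 fold change of -0.94 ± 0.44 (SE, n = 3 against 3, limma adjusted p = 0.745) in CUMS 1-3 and -1.21 ± 0.44 (SE, n = 3 against 3, limma adjusted p = 0.749) in CUMS 4-6. Without control 3 it was -0.29 in CUMS 1-3 and -0.56 in CUMS 4-6 (limma adjusted p = 0.943 in CUMS 4-6).

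Ccna2 and Aurkb were the mitosis genes in which every CUMS rat was below every control. Ccna2, cyclin A2, which acts in S phase and at the entry into mitosis, had signals of 24.7, 27.2 and 50.5 in CUMS 1-3, 29.3, 23.9 and 43.1 in CUMS 4-6 and 57.1, 92.8 and 489 in control 1-3. It was under the filter, with log2 fold changes of -2.08 in CUMS 1-3 and -2.14 in CUMS 4-6, and -1.17 and -1.22 without control 3. Aurkb (1368260_at), the Aurora B kinase, which corrects faulty spindle attachments, had signals of 54.9, 74.7 and 79.3 in CUMS 1-3, 62.5, 42.96 and 68.4 in CUMS 4-6 and 83.5, 97.00 and 337 in control 1-3. The gap between CUMS 3 and control 1 was small, and control 3 was far above. Aurkb had a log2 fold change of -1.02 ± 0.49 (SE, n = 3 against 3, limma adjusted p = 0.745) in CUMS 1-3, and -0.39 without control 3.

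Motor, spindle and cytokinesis genes also had their highest signals in control 3. Kif23 (1391063_at), a kinesin of the spindle midzone, had signals of 48.1, 58.5 and 164 in CUMS 1-3, 71.2, 63.04 and 65.3 in CUMS 4-6 and 99.99, 161 and 424 in control 1-3. CUMS 3 was just above control 2, and the other 5 CUMS rats were below all controls. Its log2 fold change was -1.30 ± 0.55 (SE, n = 3 against 3, limma adjusted p = 0.733) in CUMS 1-3 and -1.51 ± 0.55 (SE, n = 3 against 3, limma adjusted p = 0.744) in CUMS 4-6. Without control 3 these were -0.72 and -0.93. Birc5 (1368799_at), survivin, which works with Aurora B, had signals of 71.4, 92.4 and 169 in CUMS 1-3, 28.7, 93.8 and 66.5 in CUMS 4-6 and 125, 122 and 329.8 in control 1-3. All 3 rats of CUMS 4-6 were below all controls, while CUMS 3 was above control 1 and control 2. Birc5 had a log2 fold change of -1.61 ± 0.53 (SE, n = 3 against 3, limma adjusted p = 0.744) in CUMS 4-6, and -1.13 without control 3. In CUMS 1-3 it was -0.73, and -0.25 without control 3. Kif11 (1390891_at), the kinesin that pushes the spindle poles apart, had 92.8, 42.8 and 107 in CUMS 1-3, 107, 72.7 and 92.5 in CUMS 4-6 and 109, 106 and 206 in control 1-3. CUMS 2 stood apart as the lowest rat, and the log2 fold change was -0.83 ± 0.40 (SE, n = 3 against 3, limma adjusted p = 0.749) in CUMS 1-3, and -0.51 without control 3. Prc1, a microtubule bundler of the midzone, ranged widely, with 28.2, 48.6 and 216 in CUMS 1-3, 110.5, 14.9 and 58.01 in CUMS 4-6 and 101, 142 and 483 in control 1-3. The signal of CUMS 3 was above control 1 and control 2, and CUMS 5 was the lowest, with log2 fold changes of -1.51 in CUMS 1-3 and -2.06 in CUMS 4-6, and -0.84 and -1.39 without control 3.

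The promoters of Kif23 and Birc5, at chr8:71320535-71320834, minus strand, and chr10:103571896-103572195, plus strand, in GRCr8, are shown from RefSeq as mitosis genes that hold the CHR motif, in the same form as those of the Mcm genes. Capitals mark the CHR motif, TTTGAA on either strand, of which each has 1 match, and neither holds the E2F motif.
Kif23: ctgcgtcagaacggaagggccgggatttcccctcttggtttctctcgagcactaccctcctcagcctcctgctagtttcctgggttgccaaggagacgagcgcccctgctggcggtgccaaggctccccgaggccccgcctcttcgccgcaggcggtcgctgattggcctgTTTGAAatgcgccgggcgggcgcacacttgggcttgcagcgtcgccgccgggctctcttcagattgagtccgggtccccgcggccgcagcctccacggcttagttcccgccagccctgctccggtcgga
Birc5: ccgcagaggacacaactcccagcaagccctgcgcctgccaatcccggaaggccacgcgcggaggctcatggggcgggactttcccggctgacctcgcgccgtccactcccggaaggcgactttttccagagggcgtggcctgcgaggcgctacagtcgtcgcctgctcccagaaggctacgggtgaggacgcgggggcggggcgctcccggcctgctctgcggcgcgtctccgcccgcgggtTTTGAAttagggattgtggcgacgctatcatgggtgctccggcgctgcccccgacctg

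Of the condensin genes, which compact chromosomes, Smc4 (1389359_at) had signals of 98.04, 74.1 and 62.1 in CUMS 1-3, 98.2, 79.1 and 52.98 in CUMS 4-6 and 118, 91.1 and 177 in control 1-3. Its log2 fold change was -0.69 ± 0.35 (SE, n = 3 against 3, limma adjusted p = 0.753) in CUMS 1-3 and -0.73 in CUMS 4-6, and -0.43 and -0.48 without control 3. A further Smc4 probe set kept by the filter (1383008_at) had -0.01 in CUMS 1-3 and -0.45 in CUMS 4-6. Without control 3 it had the other sign in both, at 0.48 and 0.04. Smc2 had -0.44 in CUMS 1-3 and -0.73 in CUMS 4-6, and -0.13 and -0.42 without control 3. Ncapd2 had -0.10 in CUMS 1-3 and -0.14 in CUMS 4-6, and without control 3 both had the other sign, at 0.25 and 0.20. Control 3 was less far above control 1 and control 2 in these 3 genes than in most others of the mitosis list, at 1.70, 1.91 and 1.93 times their mean in that order.

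The remaining members of the list act from the G2/M switch to the parting of the cells. Ccnb1 and Ccnb2, the B cyclins that activate Cdk1, had log2 fold changes of -0.35 and -0.65 in CUMS 1-3 and of -0.65 and -1.04 in CUMS 4-6. Without control 3, Ccnb1 had 0.15 in CUMS 1-3, the other sign, and -0.15 in CUMS 4-6, and Ccnb2 had -0.08 and -0.47. A further Ccnb1 probe set kept by the filter (1370346_at) had -0.93 and -1.96 in CUMS 1-3 and CUMS 4-6, and -0.45 and -1.49 without control 3. Foxm1, the factor that switches on mitotic genes, was dim, with signals of 9.03 to 46.7 in the other 8 rats and 95.8 in control 3, and was not tested. Its log2 fold changes were -0.44 in CUMS 1-3 and -0.35 in CUMS 4-6 with control 3, and 0.54 and 0.62 without it. Top2a had 94.8, 24.8 and 98.04 in CUMS 1-3, 93.7, 65.2 and 68.9 in CUMS 4-6 and 44.1, 60.3 and 369 in control 1-3, so that every CUMS rat except CUMS 2 lay above control 1 and control 2. Its log2 fold changes were -0.70 in CUMS 1-3 and -0.41 in CUMS 4-6 with control 3 and 0.25 and 0.54 without it. A further Top2a probe set, under the filter (1372186_a_at), had -0.97 and -1.03 with control 3 and -0.36 and -0.42 without it. The checkpoint kinase Bub1, which guards spindle attachment, had -0.81 and -0.93 in CUMS 1-3 and CUMS 4-6, and -0.09 and -0.22 without control 3. Ttk, a spindle checkpoint kinase under the filter, had -0.09 in CUMS 1-3 and -1.55 in CUMS 4-6, and 1.33 and -0.14 without control 3. Aurka, with the smallest excess in control 3 of the mitosis genes, had 77.1, 61.5 and 88.01 in CUMS 1-3, 44.02, 96.04 and 74.2 in CUMS 4-6 and 136, 85.4 and 155 in control 1-3. CUMS 4 was the lowest and control 1 was close to control 3, and the log2 fold changes were -0.71 in CUMS 1-3 and -0.84 in CUMS 4-6, and -0.53 and -0.67 without control 3.

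Nusap1, which bundles spindle microtubules, Racgap1 and Ect2, which set up the contractile ring, and Ube2c, which marks mitotic cyclins for destruction, were alike in control 3. In each, it was more than 3 times above the mean of control 1 and control 2. In CUMS 1-3 their log2 fold changes lay between -0.87 (Nusap1) and -0.67 (Racgap1) with control 3 and between -0.22 (Nusap1) and 0.16 (Racgap1) without it. In CUMS 4-6 they lay between -1.38 (Ect2) and -0.52 (Ube2c) with control 3 and between -0.59 (Ect2) and 0.06 (Ube2c) without it. Melk, a kinase of dividing cells, and Cdkn3, a phosphatase that acts on Cdk2, were under the filter, with log2 fold changes of -1.12 and -1.81 in CUMS 1-3 and of -1.19 and -1.92 in CUMS 4-6. Without control 3 these were -0.59 and -0.999 in CUMS 1-3 and -0.65 and -1.11 in CUMS 4-6.

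Plk1, Cdc20 and Bub1b were mitosis genes under the filter, with low signals in most of the other rats. Without control 3, Plk1 and Cdc20 had another sign in CUMS 4-6, and Bub1b kept its sign in both CUMS groups. Plk1, the Polo kinase of early mitosis, had 16.6, 11.1 and 22.1 in CUMS 1-3, 7.53, 3.16 and 7.80 in CUMS 4-6 and 5.19, 4.51 and 96.4 in control 1-3. Its log2 fold change was 0.28 in CUMS 1-3 and -1.20 in CUMS 4-6, and 1.72 and 0.24 without control 3. Cdc20, an activator of the anaphase-promoting complex, had log2 fold changes of 0.84 and -0.18, and 1.97 and 0.94 without control 3. Its further probe sets, all under the filter, had -0.35, 0.24, -1.59 and -2.08 in CUMS 1-3. Without control 3 these were -0.92, 0.38, -1.35 and -1.58, so most had the sign opposite to that of the probe set used here. Bub1b, of the spindle checkpoint, had 8.54, 4.51 and 9.78 in CUMS 1-3, 39.8, 49.6 and 21.1 in CUMS 4-6 and 9.56, 20.3 and 156 in control 1-3. Its log2 fold changes were -2.11 in CUMS 1-3 and 0.16 in CUMS 4-6, and -0.95 and 1.32 without control 3. It was the 1 gene of the list in which all 3 rats of CUMS 1-3 were below all 3 of CUMS 4-6, with a log2 fold change of -2.26 between them. Plk1 was the 1 gene with the opposite separation, at 1.49. Of all 14217 genes, 704 had the separation of Bub1b and 653 that of Plk1. Both genes were under the signal filter, and neither was tested.

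Counted over all 28 mitosis genes, 26 were lower in CUMS 1-3 and 27 in CUMS 4-6. The exceptions were Cdc20 and Plk1 in CUMS 1-3 and Bub1b in CUMS 4-6. The median log2 fold change was -0.76 in CUMS 1-3 (0.589 of control) and -1.13 in CUMS 4-6 (0.458 of control). Without control 3, 20 genes were lower in CUMS 1-3 and 21 in CUMS 4-6, with medians of -0.24 and -0.45. The mean log2 signal of the 28 genes, set against the mean of control 1 and control 2, was -0.32, -0.51 and 0.52 in CUMS 1-3, -0.19, -0.57 and -0.32 in CUMS 4-6, and -0.12, 0.12 and 2.16 in control 1-3. CUMS 3 was thus above control 1 and control 2, and the other 5 CUMS rats were below both.

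**Figure D3:**
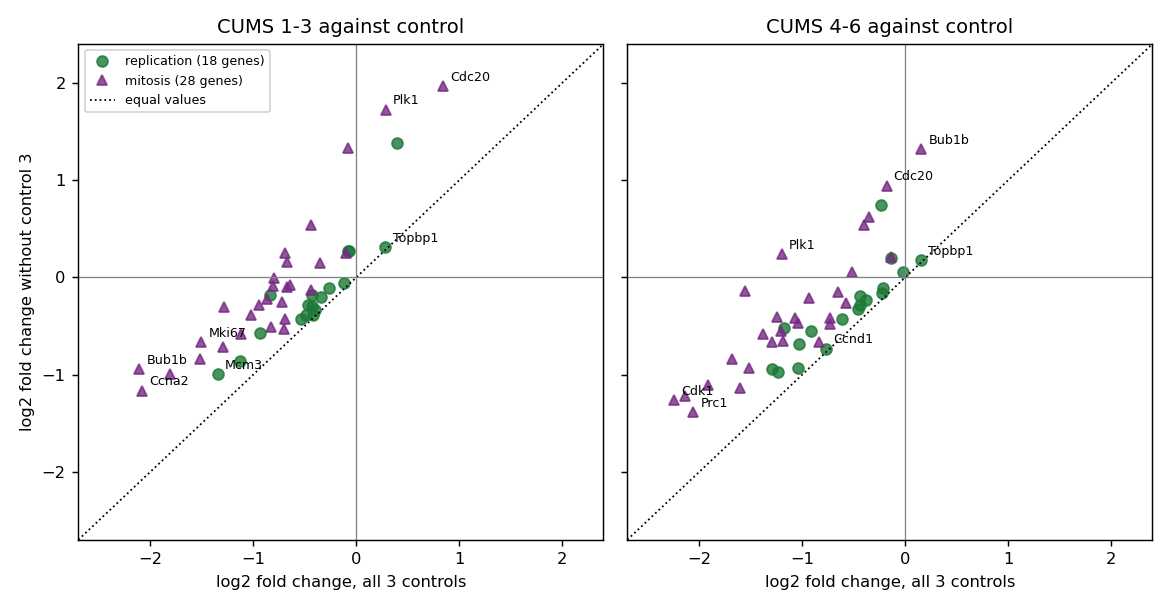
Log2 fold change of each of the 46 genes with all 3 controls (horizontal axis) and without control 3 (vertical axis), for CUMS 1-3 against control (left) and CUMS 4-6 against control (right). Circles are the 18 replication genes, triangles the 28 mitosis genes, and on the dotted line both values are equal. All points lie above the line. The distances of replication and mitosis genes from it overlap, and most mitosis genes lie further from the line than most replication genes. The medians with and without control 3 are -0.76 and -0.24 for mitosis genes and -0.42 and -0.24 for replication genes in CUMS 1-3, and -1.13 and -0.45 for mitosis genes and -0.45 and -0.31 for replication genes in CUMS 4-6.

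The limma test left out the 40% of probe sets with the lowest mean log2 signals, and p-values were adjusted by Benjamini-Hochberg over the 18625 probe sets kept. A probe set was called at an adjusted p under 0.05. No member was called in CUMS 1-3 against control, where the smallest adjusted p of a member was 0.606, and 0% of all probe sets were called. At an unadjusted p under 0.05, 6 of the 33 tested members were lower, 5 for replication and 1 for mitosis, beside 4.17% of all probe sets tested. In CUMS 4-6 against control, no member was called (smallest adjusted p = 0.744), again beside 0% of all probe sets, and 19 of 33 members were lower at an unadjusted p under 0.05, 8 for replication and 11 for mitosis, beside 3.55% of all probe sets. Groups without overlap, with the CUMS rats below, were found for 7 of 46 members in CUMS 1-3 (6.91% of all genes) and for 15 of 46 in CUMS 4-6 (6.82%), 5 of them for replication in each.

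Without control 3, 2 members had an unadjusted p under 0.05 in CUMS 1-3, Mcm3 and Mcm6, beside 2.99% of all probe sets, and 5 members had one in CUMS 4-6, Mcm3, Mcm6, Ccnd1, Ccne1 and Stmn1, beside 2.53%. None was called in either. The filter uses the mean over all 9 arrays, so some members passed it through control 3. With the filter computed from the other 8 arrays, 29 of the 46 members would have passed, and Ccne1, Top2a, Racgap1 and Ect2 would not. Of the 15 members with more than 1 probe set, 20 further probe sets were measured, 15 of which had the direction of the probe set used here in CUMS 1-3 against control. Among the 7 of them kept by the filter, 7 had that direction, with Smc4 at only -0.01. Without control 3, the further probe set had the opposite sign in Smc4 (0.48 against -0.43) and Ccnb1 (-0.45 against 0.15). The others kept by the filter still had the direction of the probe set used here. Control 3 was the highest rat in 11 of the 20.

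Control 3 was examined gene by gene against control 1 and control 2. The median log2 difference was 0.51 over the replication genes (1.42 times) and 1.99 over the mitosis genes (3.98 times), beside 0.05 over all genes. Control 3 was more than 2 times above control 1 and control 2 in 6 of 18 replication genes, 24 of 28 mitosis genes and 11.6% of all genes. Its ratio to the mean of the 2 other controls was 7.70 for Cdk1, 7.06 for Top2a, the topoisomerase that untangles sister chromatids, and 5.73 for Mki67. For Plk1 and Ttk, at 5.19 and 4.51 and at 3.57 and 8.51 in control 1 and control 2, the signals lay far under the filter limit of 67.02, and no ratio is given. At the other end were Aurka, the Aurora A kinase of the spindle poles, at 1.40, and Topbp1 and Ccnd1 at 1.05 and 1.06. After quantile normalization or centring on the median, control 3 was the highest rat in 27 of 28 mitosis genes and 10 of 18 replication genes.

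The higher signals in control 3 came with higher signals of markers of other liver cell types, whose part in the cell cycle differences was not tested. The summed signal of the 14 measured stellate cell and fibroblast markers of 14 listed was 5560 to 6348 in CUMS 1-3, 7147 to 8750 in CUMS 4-6, 9217 to 9725 in control 1 and control 2, and 36181 in control 3. All 14 had lower means in both CUMS groups, and control 1 and control 2 were also above all CUMS rats. That of the 5 bile duct cell markers measured of 7 was 697 to 1233 in CUMS 1-3, 902 to 1109 in CUMS 4-6, 1033 to 1113 in control 1 and control 2, and 9239 in control 3, where Spp1, osteopontin, alone gave 7740. The macrophage marker sum was above the other rats in control 3 by less. The 12 Kupffer cell and macrophage markers measured of 15 summed to 26241 to 35142 in CUMS 1-3, 26934 to 37813 in CUMS 4-6, 33238 to 39824 in control 1 and control 2, and 48909 in control 3. Lyz2 was 13208 in control 3 and 4769 to 5958 in the other 8 rats. Clec4f was lowest in control 3, at 4304 against 4667 to 7336. In the mean log2 signal over the 12 macrophage markers, control 3 was 0.55 above the mean of control 1 and control 2. The 12 lymphocyte markers measured of 16 gave 3576 to 4888 in CUMS 1-3, 4481 to 5246 in CUMS 4-6, 5810 to 5963 in control 1 and control 2, and 8793 in control 3. Most of this sum was Cd74, which antigen-presenting cells also express, and the lymphocyte markers as a list did not follow it. In the mean log2 signal over the 12 markers, set against the mean of control 1 and control 2, the CUMS rats lay between -0.23 and 0.44, control 1 and control 2 at 0.54 and -0.54, and control 3 at 0.56. The 5 neutrophil markers measured of 10 gave 7946 to 13141 in CUMS 1-3, 5823 to 8289 in CUMS 4-6, 1842 to 10157 in control 1 and control 2, and 17576 in control 3. The gap between control 1 and control 2 lay mainly in Lcn2, a secreted lipocalin of neutrophil granules, at 9140 and 794. S100a8 and S100a9, the calprotectin subunits, were close in these 2 rats, and were highest in CUMS 3, at 3538 and 6283, against 1727 and 3459 in control 3. Endothelial markers (9 of 11 measured) gave 15514 to 17115 in CUMS 1-3, 15829 to 17838 in CUMS 4-6, 14324 to 14453 in control 1 and control 2, and 19587 in control 3. The sum of the erythroid markers (8 of 12 measured), most of it Hbb, a beta-globin gene, was 28696 in control 3 and 29206 to 35826 in the other 8 rats. In the mean log2 signal over the 8 markers, control 3 was high instead, at 0.52 above the mean of control 1 and control 2, as was CUMS 3, also at 0.52. No marker of these lists was at 0 in any rat.

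CUMS 3 was the highest of the 6 CUMS rats in 24 of 28 mitosis genes and in 5 of 18 replication genes, beside 2614 of all 14217 genes (18.4%). Its ratio to the mean of the other 5 CUMS rats had a median of 1.63 over the mitosis genes and 1.10 over the replication genes, beside 0.991 over all genes. It exceeded 1.5 in 17 of 28 mitosis genes, with Prc1 at 4.16 and Mki67 at 3.13 at the top. After quantile normalization or centring on the median, CUMS 3 was the highest CUMS rat in 19 of 28 mitosis genes and 3 of 18 replication genes. Its stellate cell and bile duct sums, 5560 and 697, were the lowest of the 9 rats, and its neutrophil sum, 13141, was the highest of the CUMS rats. Its hepatocyte marker sum was 231423, and only control 3, at 228126, had a lower one.

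The groups labelled as major and mild depression were also compared with each other. In CUMS 1-3 against CUMS 4-6, 37 of the 46 genes had the higher mean in CUMS 1-3, with median log2 fold changes of 0.11 for the 18 replication genes and 0.21 for the 28 mitosis genes, beside -0.01 over all genes. No member was called, 0% of all probe sets were called, and no member was lower at an unadjusted p under 0.05, beside 1.32% of all probe sets. Groups without overlap with CUMS 1-3 below were found for 1 member, Bub1b, beside 4.95% of all genes. The smallest p-values were those of Chek1, with a log2 fold change of -0.39 ± 0.22, Ccnd1, at 0.35 ± 0.22, and Ccne1, at 0.55 ± 0.36. Among mitosis genes they were those of Birc5, at 0.88 ± 0.53, Smc2, at 0.30 ± 0.29, and Racgap1, a regulator of the contractile ring, at 0.57 ± 0.59 (SE, n = 3 against 3 in each). The limma adjusted p was 0.9996 in every member tested. These standard errors leave room for differences of either sign in most of these genes, so the groups were not shown to be alike. The count and the mitosis median leaned on CUMS 3, as without it 20 of the 46 genes, in place of 9, were lower in CUMS 1-3 and the mitosis median was 0.04.

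Other genes of the same processes were counted from lists of the whole process. Of 46 further replication genes, such as origin recognition, polymerase and replication factor C subunits, 41 were measured, and 25 had a lower mean in CUMS 1-3 and 32 in CUMS 4-6, with medians of -0.09 and -0.28. None was called, and 3 and 5 of the 33 tested were lower at an unadjusted p under 0.05, beside 4.17% and 3.55% of all probe sets tested. Prim1, the catalytic subunit of primase, had signals of 348, 326 and 348 in CUMS 1-3, 334, 289 and 319 in CUMS 4-6 and 436, 381 and 565 in control 1-3. All CUMS rats were below all controls, with a log2 fold change of -0.42 ± 0.17 in CUMS 1-3 (SE, n = 3 against 3, limma adjusted p = 0.733). Rpa2, of the protein that coats single-stranded DNA, had a log2 fold change of -0.52 ± 0.20 in CUMS 1-3 (limma adjusted p = 0.733), and CUMS 5 was above 2 of the controls. Without control 3 the log2 fold changes in CUMS 1-3 were -0.26 for Prim1 and -0.39 for Rpa2. Without control 3 the median of the list was 0.01 in CUMS 1-3 and -0.14 in CUMS 4-6.

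Of 50 further mitosis genes, such as kinetochore and kinesin genes, 42 were measured, and 35 had a lower mean in CUMS 1-3 and 38 in CUMS 4-6, with medians of -0.45 and -0.72. None was called, and 2 and 4 of the 22 tested were lower at an unadjusted p under 0.05, beside 4.17% and 3.55% of all probe sets tested. Without control 3 the medians were -0.08 and -0.31. Spc25, a kinetochore subunit, had signals of 49.6, 56.8 and 59.2 in CUMS 1-3, 61.7, 54.9 and 62.8 in CUMS 4-6 and 73.5, 75.05 and 324 in control 1-3. The CUMS rats were below all controls, and control 3 was again far above. Its log2 fold change was -1.14 ± 0.51 in CUMS 1-3 (SE, n = 3 against 3, limma adjusted p = 0.737), and -0.43 without control 3. Mad2l1, of the spindle checkpoint, had -0.77 ± 0.32 (limma adjusted p = 0.733) in CUMS 1-3 and -0.17 in CUMS 4-6, and -0.53 and 0.07 without control 3.

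Brakes and regulators of the cycle, such as CDK inhibitors, retinoblastoma proteins and p53, had medians near that of all genes. Of 36 measured genes of 40, 19 had a lower mean in CUMS 1-3 and 23 in CUMS 4-6, with medians of -0.02 and -0.12 (0.04 and -0.01 without control 3). None was called, and 2 of the 30 tested were lower at an unadjusted p under 0.05 in each comparison, beside 4.17% and 3.55% of all probe sets tested. Rbl1, the p107 protein, which holds E2F target genes in check and is itself raised in cycling cells, had signals of 158, 115 and 177 in CUMS 1-3, 124, 124 and 163 in CUMS 4-6 and 196, 221 and 378 in control 1-3. All CUMS rats were below all controls, with a log2 fold change of -0.78 ± 0.28 in CUMS 1-3 (SE, n = 3 against 3, limma adjusted p = 0.722), and -0.49 without control 3. Gadd45b, a stress-inducible gene, had 80.9, 98.2 and 246 in CUMS 1-3, 301, 150.1 and 268 in CUMS 4-6 and 183, 324 and 353 in control 1-3. CUMS 1 and CUMS 2 had the lowest values and the other rats overlapped, with a log2 fold change of -1.14 in CUMS 1-3 and -0.26 in CUMS 4-6, and -0.96 and -0.08 without control 3.

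**Figure D4:**
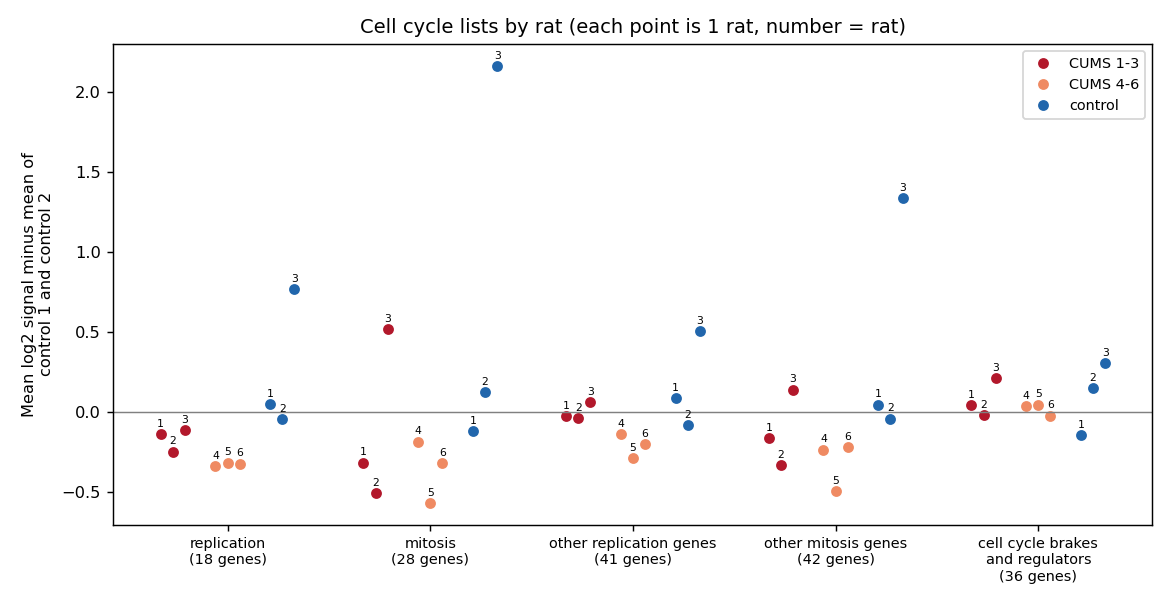
Mean log2 signal of each cell cycle list in each rat, minus the mean of control 1 and control 2, with 1 point per rat, numbered, in CUMS 1-3, CUMS 4-6 and control. Control 3 is the highest rat in all 5 lists, with a value of 2.16 for the mitosis genes and 0.77 for the replication genes. All CUMS rats are below control 1 and control 2 for the replication genes.

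The promoters of the members held different motifs in the 2 classes. RefSeq promoters were found for 37 of the 46 measured members, and Mcm4, Ccnd1, Ccne2, E2f1, Ccna2, Aurkb, Foxm1, Racgap1 and Ube2c had no entry. The E2F motif was in 10 of 14 replication genes (71.4%), 2 of 23 mitosis genes (8.7%) and 2.37% of all 27457 genes with a promoter of this length. The CHR motif was in 2 of 14 replication genes (14.3%), 17 of 23 mitosis genes (73.9%) and 19.4% of all genes. The CCAAT box, bound by NF-Y and searched as CCAAT on both strands, was in 8 of 14 replication genes, 19 of 23 mitosis genes and 39.6% of all genes. No motif contains another. The further lists gave 41.5% of 41 replication genes and 0 of 44 mitosis genes with the E2F motif, and 14.6% and 65.9% with the CHR motif. A match is a run of letters in this window and says nothing of whether a factor was bound in these livers.

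**Figure D5:**
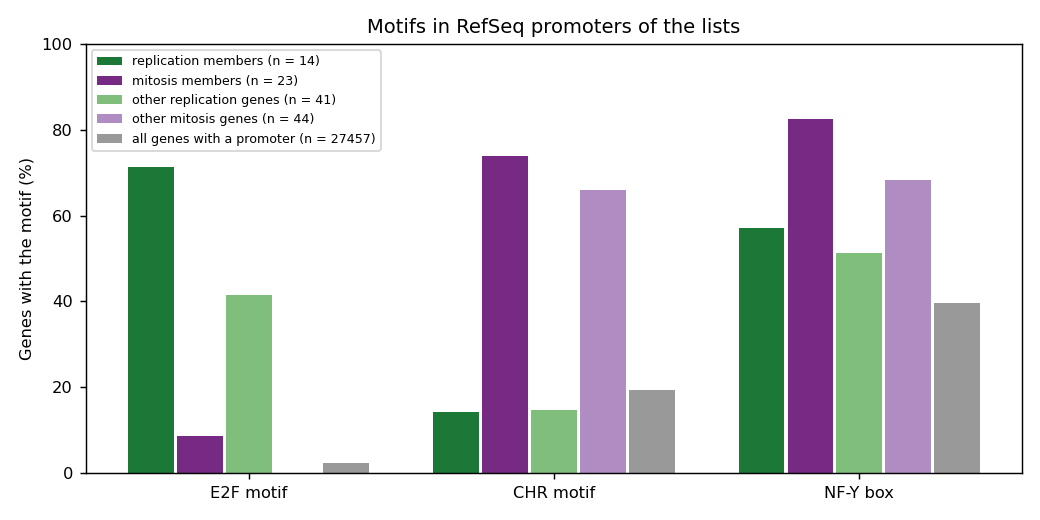
Share of genes whose RefSeq promoter (250 bases before to 50 after the start) holds the E2F motif, the CHR motif or the NF-Y box, in percent, for the replication and mitosis members, the 2 further lists and all genes with a promoter. The E2F motif is in 71.4% of the replication members and 2.37% of all genes, and the CHR motif is in 73.9% of the mitosis members and 19.4% of all genes.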

How the data were processed

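Livers of 9 rats were measured on Affymetrix rat arrays, 1 array per rat, and grouped by the symptom in the labels. The deposited values were made by the authors with MAS 5.0 as signal intensities that are not logged, brought on every array to a trimmed mean of 500.2 (2% cut at each end). Detection calls were not used here. The genome build is not given in the sources used here. The platform annotation gave a symbol of its own to 20826 probe sets of 14217 genes.

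After 57 control probe sets had been dropped, 586 signals below 1 were raised to 1 and log2 was taken. In R 4.3.3 with limma 3.58.1, 1 model held all 3 groups (6 residual degrees of freedom, variance trend) after a filter on the lower 40% of probe sets (mean log2 signal up to 6.07), which kept 18625, with Benjamini-Hochberg adjustment over these. Log2 fold changes are differences of group means. The thresholds of the study were an alternative, with ANOVA at p under 0.05 and fold changes from 1.5 up or from 0.5 down. The test was tried first on simulated data. The number of arrays limits the precision.

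The members and gene lists were chosen with earlier results of these data known. Full statistics were given for the members with the smallest limma p among those kept (6 replication and 6 mitosis genes for CUMS 1-3 against control, 3 and 3 for each other comparison), for 2 genes of each further list, and for the Topbp1 probe sets. Alternatives were other scalings, floors, filters and variance settings, a replicate block, and each rat left out. Promoters were read from RefSeq tables (GRCr8) with Python 3.11.15.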

Additional observations from a re-analysis of the deposited data

How the results depend on the processing

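The 24 gene results with full statistics kept their direction and stayed uncalled in all 454 values, with a lowest limma adjusted p of 0.315. The counts of probe sets called over the whole arrays, 0 in each comparison, became 608 for CUMS 1-3 against control, 640 for CUMS 4-6 against control and 509 for CUMS 1-3 against CUMS 4-6 at the thresholds of the study, which adjust no p and filter no signal. Of the 46 members these held 1 lower in CUMS 1-3 against control, 2 lower in CUMS 4-6 against control, and 1 lower and 1 higher in CUMS 1-3 against CUMS 4-6. Of all 14217 genes, with 1 probe set a gene, they held 76 lower in CUMS 1-3 against control and 96 lower in CUMS 4-6 against control. In CUMS 1-3 against CUMS 4-6 they held 54 lower and 118 higher. ANOVA with Benjamini-Hochberg adjustment called 1 in CUMS 1-3 against control, and centring each array on its median called 1 in CUMS 4-6 against control. The cause was not tested. With each rat left out in turn the counts stayed at 0. With the replicate number as a block, CUMS 1-3 against control gave 0 calls in this paired fit as well, and the numbers did not pair the rats, as the deviations of same-numbered CUMS and control rats correlated at 0.003, -0.049 and 0.14. The members lower in CUMS 1-3 against CUMS 4-6 numbered 9, and between 4 (without CUMS 2) and 20 (without CUMS 3) with 1 rat left out. Leaving out control 3 moved the median log2 fold change of the mitosis genes to -0.24 in CUMS 1-3 (-0.76 with it) and to -0.45 in CUMS 4-6 (-1.13 with it). No scaling moved the median of all genes by more than 0.1 on the log2 scale. Many mitosis probe sets are dim, with 9 of 28 under the signal filter, and there the signal over background limits what can be seen.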
